A study of Mus musculus with 2 samples.

Results

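The mouse mitochondrial genome and its annotated copies on chromosome 1 were followed in total RNA of the aged hippocampus. The 40 genes are the 37 whose symbol starts with mt- and 3 pseudogenes, Gm28661, Gm10925 and Gm28437, out of 55536 genes in the deposited tables. Of the 37, 13 encode proteins, 2 encode ribosomal RNA (rRNA) and 22 encode transfer RNA (tRNA). The mt- genes were taken by name, while the 3 pseudogenes were selected on their high TPM in these same libraries, so the levels of the pseudogenes are given as a description. The RNA came from a layer of hippocampus, not further named in the labels, of female B6CASTF1/J mice, hybrids of C57BL/6J and CAST/EiJ, aged 18 to 20 months, with 300 ng of RNA per library, reduced rRNA and added ERCC spike-in RNA. No treatment, transgene or other genotype is labelled. There were 2 libraries of 1 group, labelled biological replicates 1 and 2, which carry separate biosample labels and 1 shared donor label, so it is not known whether they come from different animals. With no second group there was no contrast to test and no p-value was computed. Ratios between the libraries describe these libraries only.

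Gene-assigned expected counts, the estimated reads per gene, summed to 35358099 in replicate 1 and 36307276 in replicate 2, and spike-ins took 0.493% and 0.489% of counts. All 11 hippocampal neuron markers examined reached a TPM (an abundance corrected for transcript length that sums to the same total in every library) of at least 1 in both libraries, with Nrgn, a postsynaptic calmodulin-binding protein, highest at 619 and 554 TPM.

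Mitochondria keep a small circular genome that is inherited from the mother and is copied into RNA as long transcripts from both strands. The tRNA genes lie between most of the rRNA and protein genes, and cutting the tRNAs out of the long transcript releases the other RNAs. The proteins encoded there are core subunits of respiratory complexes I, III and IV and of the ATP synthase, complex V, which supply most of the ATP that neurons use for ion pumping and synaptic transmission. Pieces of mitochondrial DNA have also been inserted into nuclear chromosomes over evolution and are annotated as pseudogenes.

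The 3 pseudogenes were copies of 3 neighbouring mitochondrial genes without a single base difference. In GENCODE M21 on the mm10 build, Gm28661 (ENSMUSG00000102070.1, chr1:24614885-24615565, minus strand) was identical over its 681 bases to mt-Co2 (ENSMUSG00000064354.1, chrM:7013-7696, plus strand). Gm10925 (ENSMUSG00000100862.1, chr1:24613974-24614651) was identical over 678 bases to mt-Atp6 (ENSMUSG00000064357.1, chrM:7927-8607). Gm28437 (ENSMUSG00000101111.1, chr1:24613189-24613971) was identical over 783 bases to mt-Co3 (ENSMUSG00000064358.1, chrM:8607-9390). Each pseudogene is annotated as unprocessed and as a single stretch on the minus strand. The last bases of each pair are printed because they are all that separates the annotated members of a pair. They are written 5′ to 3′ on the strand of the gene, with the bases beyond the annotated end of the pseudogene in capitals.
mt-Co2: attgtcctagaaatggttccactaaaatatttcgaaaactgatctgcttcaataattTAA
Gm28661: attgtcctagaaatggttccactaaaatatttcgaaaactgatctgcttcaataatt
mt-Atp6: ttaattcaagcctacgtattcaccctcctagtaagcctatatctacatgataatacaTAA
Gm10925: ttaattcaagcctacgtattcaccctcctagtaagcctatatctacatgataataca
mt-Co3: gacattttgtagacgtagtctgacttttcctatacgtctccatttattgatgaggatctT
Gm28437: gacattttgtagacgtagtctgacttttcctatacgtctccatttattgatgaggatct
The capitals are TAA for mt-Co2 and mt-Atp6, the stop codon of the mitochondrial gene. For mt-Co3 the capital is T, and its stop codon is completed only when a poly(A) tail is added. Only annotated sequences were compared, so whether chromosome 1 carries these bases just past each annotated end was not tested.

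The quantified transcripts therefore gave almost no base by which a read could be placed in 1 member of a pair. In the gene tables with RSEM column names, effective length was 99 bases shorter than annotated length for all 18 of the 40 genes that had one, which leaves 1 start position for every stretch of 100 bases. Of the 585 stretches of 100 bases in mt-Co2, 3 were not found in Gm28661. For mt-Atp6 the number was 3 of 582 and for mt-Co3 it was 1 of 685. No stretch of any of the 3 pseudogenes was missing from its mitochondrial gene. The libraries carry CAST/EiJ alleles, whose sequence at this place on chromosome 1 was not analysed here.

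The chromosome 1 copies form 1 run of 7 annotated pseudogenes, all on the minus strand, over 4663 bases (chr1:24611535-24616197). The matching stretch of the mitochondrial genome spans 4662 bases (chrM:6381-11042), taking each annotated copy at its full length without gaps. This stretch holds its genes in the same order, including mt-Atp8 and 5 tRNA genes (mt-Ts1, mt-Td, mt-Tk, mt-Tg and mt-Tr), for which no copy is annotated on chromosome 1. The bases between annotated copies were not compared, and between Gm10222 and Gm28438 there are 74 on chromosome 1 against 73 in the mitochondrial genome. No other gene is annotated within 10 kb of the run. The other 4 copies match mt-Co1 (Gm29216), mt-Nd3 (Gm28438), mt-Nd4l (Gm10222) and mt-Nd4 (Gm28439). Gm10222 and Gm28439 also had no difference over their 294 and 876 bases, while Gm28438 had 1 over 345 bases. That base is printed because it is the only difference found between a copy of this run other than Gm29216 and its gene. It is T3C (position 3 of the gene, the mt-Nd3 base first), in capitals.
mt-Nd3: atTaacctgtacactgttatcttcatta
Gm28438: atCaacctgtacactgttatcttcatta
Gm29216 (chr1:24615706-24616197) had 6 differences from mt-Co1, all within the first 13 bases of its annotated sequence. Where the inserted stretch begins was not tested. The last of these is A1066T, counted from the start of mt-Co1 and shown in capitals, and from there to its end the copy is identical.
mt-Co1: ggaAttgttttatccaactcatcccttga
Gm29216: ggaTttgttttatccaactcatcccttga

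A search of all annotated transcripts with the mitochondrial rRNA and protein genes found 23 nuclear copies aligned over at least 100 bases. The 7 on chromosome 1 were 99.7 to 100% identical over the aligned bases, and the other 16 were 75.7 to 97.6% identical. The 7 copies on chromosome 1 held 302108 and 343049 expected counts in replicates 1 and 2, against 95 and 122 for the other 16 together, of which 11 were at 0 in both libraries. Of the former, 273670 and 310738 were held by the 3 pseudogenes that had been selected on their level, so this contrast is a description. The most read of the 16 lie on chromosome 2, Gm13341, a copy of mt-Co2 with 49 and 57 counts, and Gm13340, a copy of mt-Co1 with 44 and 62. These copies differ from their genes at several bases, 97.6% identity for Gm13340 and 95.9% for Gm13341. Copies that are not annotated as genes were not searched for.

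**Figure D1:**
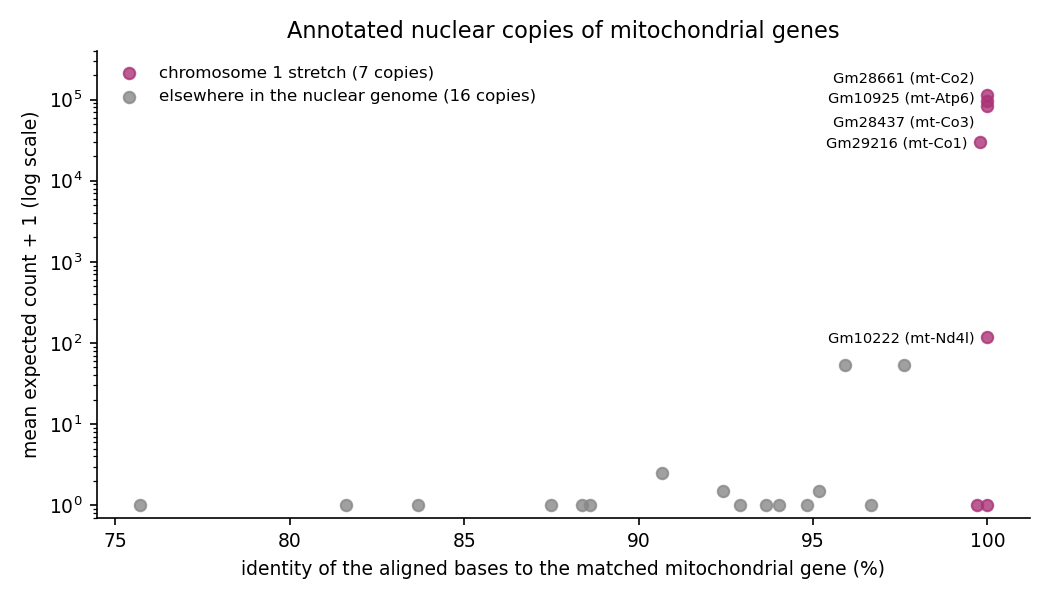
Mean expected count of both libraries plus 1 (log scale) for each of the 23 annotated nuclear copies against its percent identity to the matched mitochondrial gene. The 16 copies outside the chromosome 1 stretch together hold 95 and 122 counts, while Gm28661, Gm10925, Gm28437 and Gm29216 in the stretch each hold at least 28438, and 2 other copies of the stretch are at 0.

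Within the run, reads differed between copies with the same identity. Gm28661 had 108550 counts in replicate 1 and 118630 in replicate 2, Gm10925 90215 and 100506, and Gm28437 74905 and 91602. Gm29216, which lies outside the rule that chose the genes, had 28438 and 32073. Gm10222 had 0 and 238, and Gm28439 and Gm28438 were at 0 in both libraries. By posterior mean Gm10222 had 742 and 1352 reads, with a posterior SD of 541 and 573, and Gm28439 had 5 and 6. In the kallisto layout Gm28439 had 1776 and 595 and Gm10222 was at 0. The reads given to the identical copies Gm28439 and Gm10222 thus also depended on the estimate, and in all 3 estimates stayed below those of Gm29216.

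The division of reads within each pair changed with the estimate used. The gene tables give, beside the expected count, a posterior mean count with its SD, and transcript tables with kallisto column names give a further estimate. In expected counts, mt-Co2, which encodes cytochrome c oxidase subunit II, kept 3122 reads in replicate 1 and 5479 in replicate 2, so that Gm28661 held 97.2% and 95.6% of the reads of the pair. By posterior mean, mt-Co2 had 18227 and 21448 reads, 5.84 and 3.91 times its expected count, and the share of Gm28661 was 83.7% and 82.7%. In the kallisto layout mt-Co2 had 12143 and 15010 and Gm28661 81009 and 88132. In all 3 estimates and both libraries most reads of this pair were in the pseudogene.

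The pair of mt-Atp6, an ATP synthase subunit of the proton channel, turned over between the layouts. Expected counts were 43168 and 46553 for mt-Atp6, and Gm10925 held 67.6% and 68.3% of the pair. In the kallisto layout mt-Atp6 had 64648 and 69651 reads and Gm10925 17216 and 21590, which is 21.03% and 23.66% of the pair. For mt-Co3, which encodes cytochrome c oxidase subunit III, expected counts were 33652 and 30681, and Gm28437 held 69.0% and 74.9%. The posterior mean gave Gm28437 53.0% and 56.5%, and the kallisto layout 47.4% and 40.2%. Which member of these 2 pairs held more reads thus depended on the table, and for the kallisto layout the mitochondrial gene was ahead in both libraries.

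Expected and posterior mean counts, both from the RSEM-layout tables, gave the same sum for each pair, 111671 and 124109 for the mt-Co2 pair, 133383 and 147059 for the mt-Atp6 pair and 108557 and 122283 for the mt-Co3 pair. The kallisto-layout sums were lower, at 93152 and 103142 for the mt-Co2 pair, 81864 and 91241 for the mt-Atp6 pair and 86560 and 97095 for the mt-Co3 pair. The posterior SD was the same for both members of a pair to within 0.16 counts, at 3116 and 4000 counts for the mt-Co2 pair, 2652 and 4144 for the mt-Atp6 pair and 4149 and 5208 for the mt-Co3 pair. For mt-Co2 that SD was 17.1% and 18.7% of the posterior mean. By contrast the posterior SD of mt-Nd1, mt-Nd5, mt-Cytb and mt-Nd6, which lie outside the copied stretch, was 0 in both libraries, and that of mt-Nd2, also outside it, was 0.21 and 0.36. It was 0 as well for mt-Atp8, which lies inside the stretch but has no annotated pseudogene there.

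**Figure D2:**
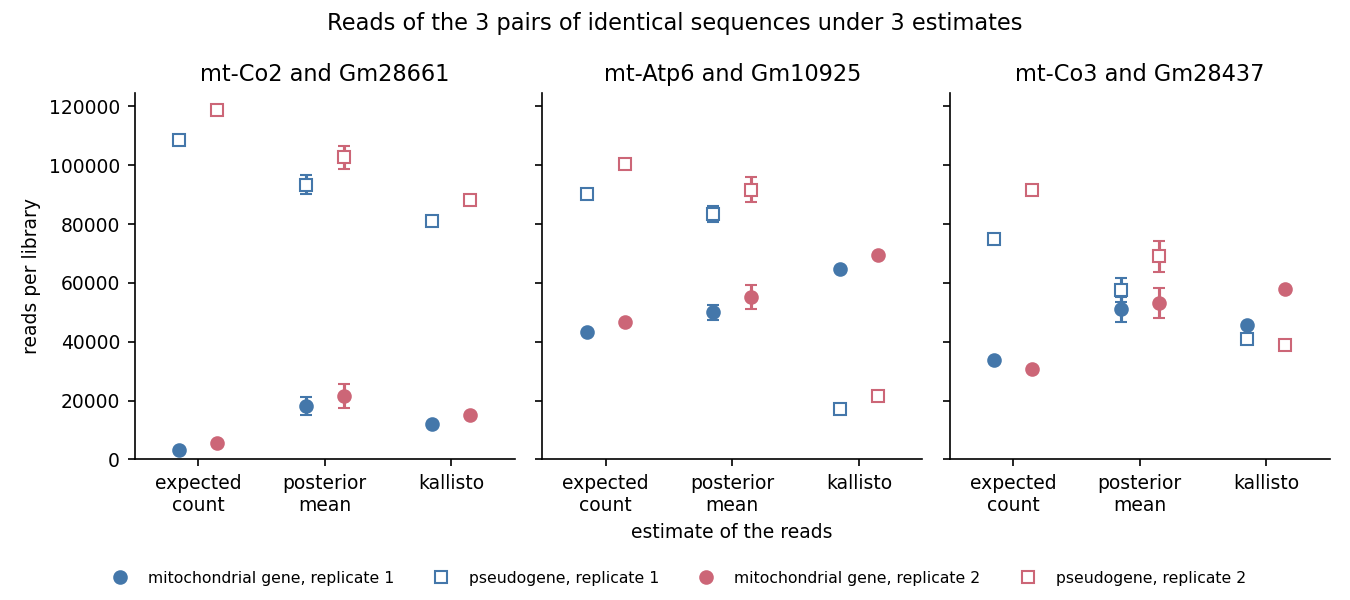
Reads per library given to the mitochondrial gene (filled circles) and its pseudogene (open squares) of each pair by expected count, posterior mean count (bars are the posterior SD) and the kallisto layout, in replicate 1 (blue) and replicate 2 (red). The pseudogene lies above the gene in every estimate for mt-Co2, and below it in the kallisto layout for mt-Atp6 and mt-Co3.

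Together the 3 pseudogenes held 77.4% and 79.0% of the reads of the 3 pairs by expected count, 66.3% and 67.0% by posterior mean and 53.2% and 51.0% in the kallisto layout. The deposited TPM of mt-Co2, 209 and 343, lay below the interval that the same table gives for it, 820 to 1539 in replicate 1 and 923 to 1867 in replicate 2. The deposited TPM of mt-Atp6 and mt-Co3 also lay below their intervals in both libraries, and those of the 3 pseudogenes lay above theirs. Of the 12 mitochondrial genes outside the pairs, 10 also lay above their intervals in both libraries, and mt-Atp8 and mt-Nd6 lay inside. In 11 mitochondrial genes, those outside the pairs other than mt-Nd4l, posterior mean TPM was 0.972 to 0.976 times the deposited TPM, while in mt-Co2 it was 5.69 and 3.82 times.

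The 37 mitochondrial genes took 9.17% of gene-assigned counts in replicate 1 and 9.08% in replicate 2, 9.12 ± 0.0658% (SD, n = 2). With the 3 pseudogenes added the share was 9.94% and 9.93%, so that the libraries came closer to each other in expected counts. In the kallisto layout they moved apart, from 9.067% and 9.085% to 9.454% and 9.493%, with replicate 2 the higher. In expected counts, the exact 95% binomial interval of the share without the pseudogenes was 9.16 to 9.18% in replicate 1. It was 9.07 to 9.09% in replicate 2, and these intervals cover counting error only. In bulk tissue, fewer cells of a type and less RNA per cell cannot be told apart, and the same holds for mitochondria. Most of the reads were rRNA, 79.2% and 77.8% of the mitochondrial counts, in libraries that had been reduced for rRNA. The 13 protein genes held the other 20.8% and 22.2%.

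The rRNA genes were the highest of all members. mt-Rnr1, the small-subunit rRNA of the mitochondrial ribosome at chrM:70-1024, stood at 35773 TPM in replicate 1 and 33093 in replicate 2. mt-Rnr2, the large-subunit rRNA at chrM:1094-2675, stood at 47235 and 44294. Per length, mt-Rnr2 was 1.32 and 1.34 times mt-Rnr1. The ratio of the 2 rRNAs, which come from the same long transcript, thus differed little between the libraries. mt-Rnr1 was 17.6 and 16.0 times the deposited median of the 12 protein genes on the plus strand. That median rose from 2037.5 and 2065.6 TPM to 2651.1 and 2756.0 TPM with the 3 pseudogenes added, which lowers the ratio. The summed TPM of the rRNA genes was 2.88 and 2.62 times that of the 13 protein genes, and 1.78 and 1.60 times once the 3 pseudogenes were counted with the protein genes.

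The protein genes spanned a wide range, and the position of 3 of them turned on the pseudogenes. As deposited, mt-Co1, the catalytic subunit of cytochrome c oxidase, was highest at 6516 and 6485 TPM. mt-Cytb, the cytochrome b of complex III, followed at 3392 and 3531 TPM, and mt-Nd1, a membrane subunit of complex I, at 3144 and 3194 TPM. The next was mt-Atp6 at 2907 and 2933 TPM. These 4 neighbours in the order did not overlap between libraries.

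The other complex I genes followed, in part closer to each other than the libraries were. mt-Nd4l was at 2149 and 2318 TPM and mt-Nd4 at 2158 and 2205 TPM, and their values overlapped. mt-Atp8, the second ATP synthase subunit, was at 1682 and 1926 TPM, mt-Nd2 at 1746 and 1847 TPM and mt-Co3 at 1926 and 1642 TPM, and neighbours among these 3 also overlapped. mt-Nd3 stood at 1577 and 1571 TPM and mt-Nd5 at 1237 and 1329 TPM, below all of those named before. mt-Co2 came 12th at 209 and 343 TPM and mt-Nd6 last at 167 and 176 TPM.

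mt-Nd6 is the only protein gene on the other strand of the mitochondrial genome. As deposited, the median of the 12 plus-strand genes was 12.2 and 11.8 times its level. With the 3 pseudogenes added it was 15.9 and 15.7 times, and in the kallisto layout as deposited 10.27 and 10.31 times. mt-Nd6 overlaps the 3′ end of mt-Nd5 by 14 bases on opposite strands, fewer than the 100 bases spanned from each start position. The posterior SD of mt-Nd5 and mt-Nd6 was 0 in both libraries. How the counting treated strand is not given in the sources used here.

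With the TPM of the identical pseudogene added, the order changed at the top. mt-Atp6 became highest at 9014 and 9298 TPM and mt-Co2 second at 7520 and 7818 TPM. mt-Co1 at 6516 and 6485 and mt-Co3 at 6218 and 6553 overlapped, followed by mt-Cytb. The 4 highest are neighbours in the genome, where mt-Atp8 is the only other protein gene between them. The ratio of the highest to the lowest of the 12 plus-strand genes fell from 31.2 to 7.29 in replicate 1 and from 18.9 to 6.996 in replicate 2. The share of mt-Co2 in the summed TPM of the 13 proteins rose from 0.726% and 1.16% to 16.2% in both libraries.

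The subunits of cytochrome c oxidase came together in the same step, which rests on the same choice of pseudogenes. As deposited the 3 subunit genes mt-Co1, mt-Co2 and mt-Co3 ranged from 209 to 6516 TPM in replicate 1 and from 343 to 6485 in replicate 2. With the pseudogenes added they ranged from 6218 to 7520 and from 6485 to 7818 TPM. The 7 complex I genes, to which no pseudogene was added, ranged from 167 to 3144 and from 176 to 3194 TPM. If the reads of Gm29216 were added to mt-Co1 as well, mt-Co1 would again be highest at 9353 and 9478 TPM, a sum chosen after seeing the data.

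**Figure D3:**
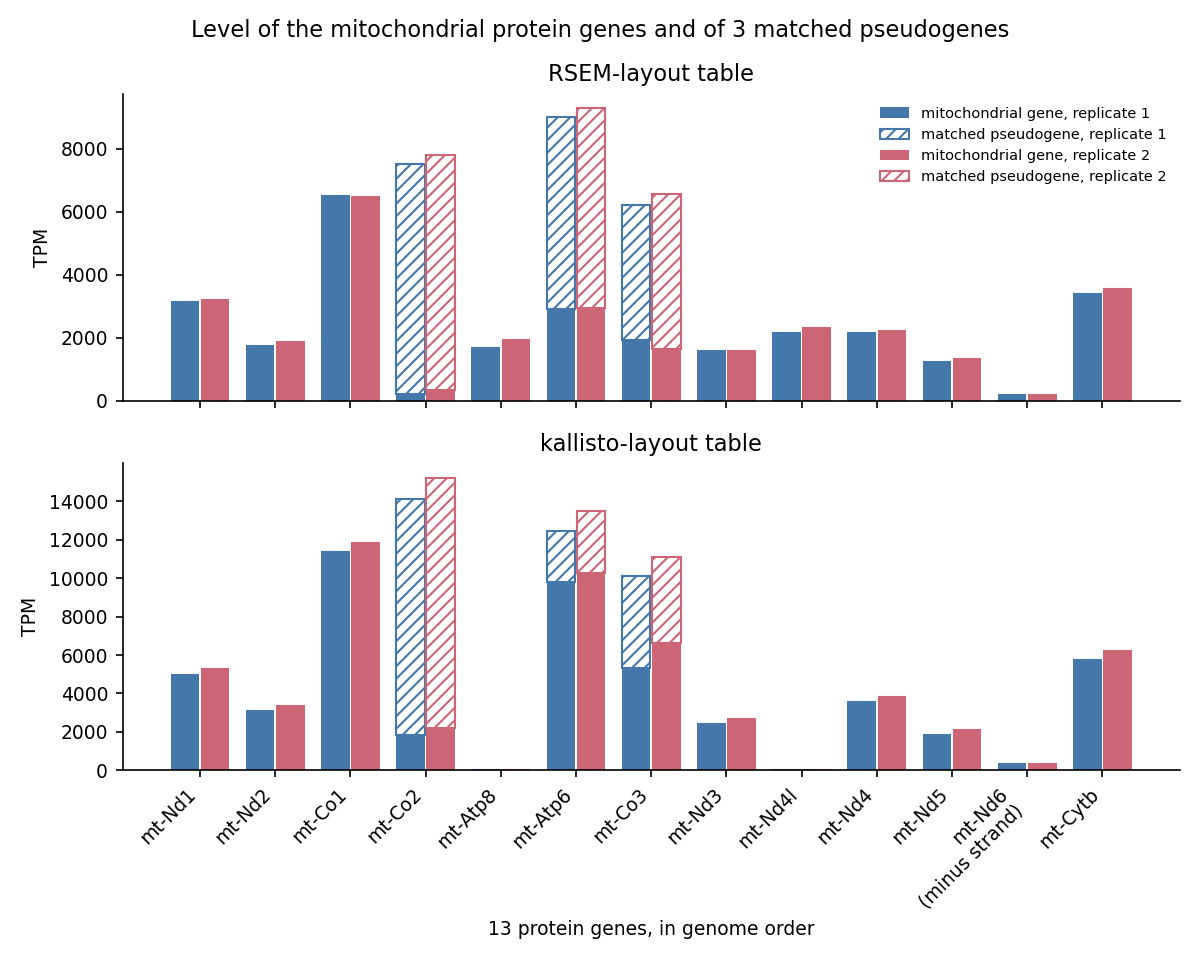
TPM of the 13 mitochondrial protein genes in genome order (solid bars) with the TPM of the identical chromosome 1 pseudogene stacked on top (hatched), in replicate 1 (blue) and replicate 2 (red), for the RSEM-layout and kallisto-layout tables. In the RSEM-layout table mt-Co2 rises from 209 and 343 TPM to 7520 and 7818 TPM when Gm28661 is added, and mt-Atp8 is at 0 in the kallisto-layout table.

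The kallisto layout gave the same leading group by another division. There mt-Co1 was highest at 11383 and 11802 TPM, mt-Atp6 second at 9804 and 10287 TPM, and mt-Co2 was at 1826 and 2198 TPM, 9th by its mean. With the pseudogenes added mt-Co2 was highest at 14111 and 15215 TPM, followed by mt-Atp6, mt-Co1 and mt-Co3. Levels are compared within a layout and not across layouts. The shortest protein genes departed furthest. mt-Atp8, of 204 bases, had no reads in the kallisto layout and mt-Nd4l, of 297 bases, had 29 and 32, against 10858 and 12515 expected counts in the RSEM layout. In the kallisto layout the effective length was 47.0 and 44.9 bases for mt-Atp8 and 68.1 and 65.7 bases for mt-Nd4l in replicates 1 and 2.

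mt-Atp8 and mt-Atp6 share bases, since their reading frames overlap by 43 bases (chrM:7927-7969). The shared stretch, shorter than 100 bases, is printed because its bases belong to both genes, with the start codon of mt-Atp6 in capitals.
mt-Atp6: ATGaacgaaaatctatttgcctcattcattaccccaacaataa
The frames of mt-Nd4l and mt-Nd4 overlap by 7 bases and those of mt-Atp6 and mt-Co3 by 1.

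All 22 tRNA genes were listed at 0 in both libraries and both layouts. They are 59 to 75 bases long, shorter than 100 bases, and the RSEM-layout tables give each an effective length of 0. The shortest and the longest are printed to show how little sequence a whole tRNA gene offers, namely mt-Ts2 (chrM:11613-11671), a serine tRNA, and mt-Tl1 (chrM:2676-2750), a leucine tRNA.
mt-Ts2: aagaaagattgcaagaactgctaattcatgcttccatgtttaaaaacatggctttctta
mt-Tl1: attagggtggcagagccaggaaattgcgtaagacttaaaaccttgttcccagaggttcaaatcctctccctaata
A 0 in such a gene therefore gives no level and no upper limit for the tRNA.

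Between the 2 libraries, with only 18 members with reads, counts past a fold limit cannot be told apart from the share over all genes. After scaling by the trimmed mean of M-values (TMM), 0 of the 18 members with reads differed over 2-fold between the libraries, where 0.384% of the 14307 genes averaging 50 counts or more did. Over 1.2-fold, 1 of the 18 did, mt-Co2, against a background of 10.4% of all such genes. Its scaled count was 1.71-fold higher in replicate 2 (exact 95% binomial interval 1.64 to 1.79, counting error only). In posterior mean counts its log2 ratio was 0.20 and in the kallisto layout 0.28, against 0.78 in expected counts. The pair of mt-Co2 and Gm28661 was 1.09-fold higher in replicate 2 as a sum (1.08 to 1.09), close to the sums of mt-Atp6 with Gm10925 at 1.08 and of mt-Co3 with Gm28437 at 1.10. In counts of the kallisto layout 3 members passed 1.2-fold, mt-Co2 at 1.22, mt-Co3 at 1.26 and Gm10925 at 1.24, each of them in a pair. The share of all genes past 1.2-fold in that layout is not given here, so this count is a description.

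Of the 13 protein genes, 12 were higher in replicate 2 and mt-Co3 lower, and both rRNA genes were lower. The median log2 ratio, replicate 2 minus replicate 1, was 0.12 for the protein genes, 0.12 for the 3 pseudogenes and -0.04 for the rRNA genes, where it was 0.00 over all genes tested and the median absolute log2 ratio was 0.07. mt-Co3 stood at -0.17 in expected counts, 0.03 in posterior mean counts and 0.33 in the kallisto layout, so its direction differed between estimates. Gm28437 itself was at 0.26 in expected counts and -0.09 in the kallisto layout. In TPM as deposited mt-Co1 and mt-Nd3 were also lower in replicate 2, so that 10 of the 13 were higher. The 10 protein genes outside the pairs ranged from 0.05 to 0.26, the latter in mt-Atp8, which has no annotated pseudogene in the run.

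**Figure D4:**
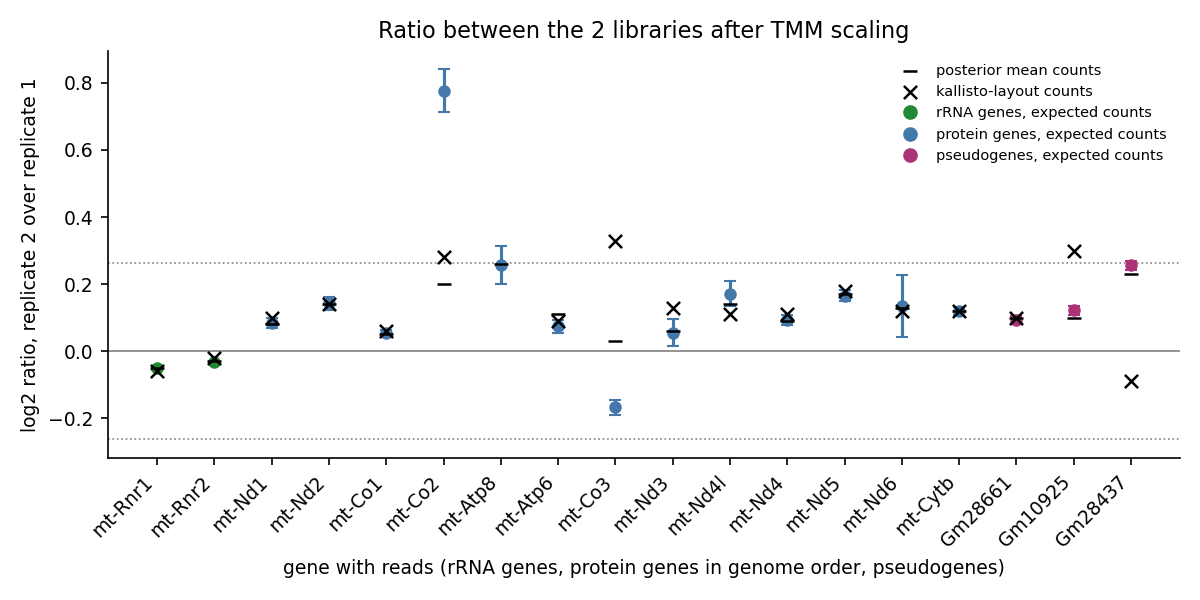
Log2 ratio of TMM-scaled counts, replicate 2 over replicate 1, for the 18 genes with reads (points, expected counts with exact 95% binomial intervals; dashes, posterior mean counts; crosses, kallisto layout); dotted lines mark 1.2-fold. The estimates lie apart for mt-Co2, mt-Co3, Gm10925 and Gm28437 and close together for most genes outside the pairs; mt-Atp8 has no cross because it had no reads in the kallisto layout.

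Markers of other cells moved with the libraries. The summed TPM of 8 meningeal fibroblast markers was 58.1 in replicate 1 and 96.4 in replicate 2, with all 8 higher and 6 over 2-fold. For the 5 erythroid markers, which include the globin genes of red cells, it was 345 and 521, with all 5 higher. For the 6 oligodendrocyte markers it was 1197 and 872, with all 6 lower and 0 over 2-fold. For the 8 choroid plexus markers it was 162 and 57.5, of which Ttr alone made 150 and 49.1. Of the 4 that averaged 50 counts or more, all were lower and 2 over 2-fold. Below that count, Kcnj13 was higher, at 33 and 46 counts, and Folr1, Otx2 and Aqp1 were lower, names added after their values were seen. Over all genes tested, 50.12% were higher in replicate 2 and 0.384% were over 2-fold apart. The part of these markers in the differences of the mitochondrial genes was not tested.

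The nuclear genes that copy, transcribe and process the mitochondrial genome stood far lower. Of 43 listed, 42 were found and all 42 reached 1 TPM in both libraries, with a median of 7.80 and 7.96 TPM. The 4 highest all act on RNA: Fastk, a regulator of mt-Nd6 RNA, at 43.8 and 42.9 TPM, the RNA-binding protein gene Grsf1 at 40.1 and 37.2, the exonuclease gene Rexo2 at 38.6 and 38.3 and Slirp, which stabilises mitochondrial mRNA, at 38.1 and 37.8. Polg2, the accessory subunit of the mitochondrial DNA polymerase, was lowest at 1.96 and 1.12 TPM. The median log2 ratio of the list was 0.04, with 26 higher and 16 lower in replicate 2. None was over 2-fold apart, and 4 of 42 were over 1.2-fold apart, 9.52% against the 10.4% of all genes tested. These were Mterf1b higher and Mterf1a, Polg2 and Rnaseh1 lower, names added after their values were seen. With 49 to 197 counts per library in 3 of these 4 and 84 to 106 in Mterf1b, counting error is wide, and the interval of Mterf1b, from 0.917-fold, included no difference.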

How the data were processed

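Per the labels, total RNA was sequenced from 2 libraries of 1 group. Per the file headers, the deposited gene tables carry RSEM column names and the deposited transcript tables kallisto column names, one library per file. The authors' tables hold expected counts and posterior mean counts (estimated counts that need not be whole), posterior SDs, TPM, FPKM and TPM intervals, and the kallisto-layout tables hold estimated counts and TPM. The build was mm10 with GENCODE M21, per the deposited notes. The aligner, the versions of these programs and how strand was treated were not given in the sources used here.

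Expected counts were rounded to whole numbers, and 26248 rows without a gene name, holding 2.78 and 6.00 counts, were left out. Gene-assigned counts were 35358099 and 36307276, and shares have exact Clopper-Pearson 95% intervals. Without molecular identifiers, these intervals express counting error alone. Kallisto-layout estimates were summed by gene. Ratios used TMM factors (edgeR 4.0.16, R 4.3.3), a prior count of 2 for log2 values and exact binomial intervals conditional on the sum for folds, over genes averaging 50 counts or more. Alternatives included scaling by ERCC totals, by library totals or with DESeq2 1.42.0, other minimums and prior counts, FPKM, counts per kilobase, the other estimates and each library alone.

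Copies were found with blastn 2.17.0, matching mitochondrial rRNA and protein genes to GENCODE M21 transcripts over at least 100 bases, and pairs were set by sequence. On simulated data for the ratio of the 2 libraries (55536 genes), the 2-fold rule found 97.0% of 200 genes that had been changed 4-fold. The spread between simulated libraries was set at a coefficient of variation of 0.1, and 6 of 14093 unchanged genes were called. Smaller changes and the 1.2-fold limit were not simulated. The members, lists and rules were chosen with earlier results of these data known. Named genes are all members, the other genes within 10 kb of the pseudogenes, the 4 highest and the lowest of the nuclear list, the highest hippocampal marker, and any list gene over 2-fold apart; marker genes over 2-fold apart are given as counts. Scripts ran under Python 3.11.15 with scipy 1.17.1, numpy 2.4.6, pandas 2.3.3 and matplotlib 3.10.9.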

Additional observations from a re-analysis of the deposited data

How the results depend on the processing

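The share of gene-assigned counts held by the 37 mt- genes, 9.12%, was 9.94% with the 3 pseudogenes added, 10.02% with all 7 chromosome 1 copies, 9.24% by posterior mean, 9.66% without misc_RNA in the denominator, 11.03% of TPM and of FPKM and 2.44% for protein-coding genes alone, and 9.08 to 9.17% in single libraries. The rRNA share of the mitochondrial total, 78.5%, was 73.3% by TPM, 72.1% with the 3 pseudogenes and 77.8 to 79.2% in single libraries. The share of pair reads in the pseudogenes, 78.2%, was 66.6% by posterior mean, 52.1% in the kallisto layout and 77.4 to 79.0% in single libraries. The ratio of mt-Rnr2 to mt-Rnr1, 1.33, was 2.30 in counts, 1.54 in kallisto-layout TPM and 1.32 to 1.34 in single libraries. The rRNA to protein ratio, 2.75, was 3.66 in counts, 2.53 in kallisto-layout TPM, 1.69 with pseudogenes and 2.62 to 2.88 in single libraries. mt-Co2 ranked 12 among the 13 protein genes, 9 in the kallisto layout, 11 by posterior mean TPM, 2 with its pseudogene, 1 in the kallisto layout with its pseudogene, and 12 in each library alone.

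The median log2 ratio of the protein genes, 0.12, was 0.13 with ERCC totals and 0.06 in TPM. For the pseudogenes, 0.12, it was 0.10 by posterior mean, 0.10 in the kallisto layout and 0.06 in TPM. For the rRNA genes, -0.04, it was -0.04 with library totals, -0.03 with ERCC totals and -0.10 in TPM. Deposited TPM shifted the median of all genes by -0.06. With a limit of 1.2-fold in place of 2-fold, the count of members apart was 1 in place of 0, and at 1.2-fold it was 3 in the kallisto layout and 0 by posterior mean. The share of all genes past 1.2-fold is given for expected counts alone. The number detected, 18, was 17 in the kallisto layout and 18 in each library alone. The median of the nuclear list, 7.88 TPM, was 11.9 as a mean, 13.4 in the kallisto layout and 7.80 to 7.96 in single libraries. The 1 ratio past 1.2-fold, that of mt-Co2, kept its sign under each alternative. mt-Co3 went from -0.17 to 0.03 by posterior mean and to 0.33 in the kallisto layout, where it passed 1.2-fold, and Gm28437 from 0.26 to -0.09 in the kallisto layout. Of 143 recomputed log2 ratios of single genes, 34 moved beyond the counting interval, and of 68 recomputed levels, 41 moved beyond the SD, FPKM and counts per kilobase being other units. The sums with 7 copies, those of the pseudogenes in the rRNA results, the 2 further rankings of mt-Co2 and the 1.2-fold count by posterior mean were chosen after seeing the data. Beyond what each alternative recomputes, the cause was not tested. No paired analysis was possible because there is 1 group. With 2 libraries, an SD rests on 1 difference, and depth does not limit the 18 members with reads.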
